A study of Homo sapiens with 12 samples.

Results

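The 50 genes described here encode proteins that carry a cell through mitosis: the mitotic kinases and cyclins, the kinetochore, the spindle checkpoint, the chromosomal passenger complex, condensin, the anaphase machinery, and factors of spindle assembly and cytokinesis. They were chosen by name, with earlier results of these data known, and genes named as kinesins (KIF) were left out. Each symbol matched 1 of the 61552 gene identifiers in the count tables. All 50 were among the 18646 genes that had enough counts to be tested.

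The RNA was that of RD cells, a long-established human line labelled as embryonal rhabdomyosarcoma (ERMS) of the fusion-negative (FN-RMS) type, grown in RPMI with fetal bovine serum. In the 3 EHMT1 siRNA libraries the cells had received EHMT1-specific siRNA, and in the 3 scrambled siRNA libraries a scrambled siRNA. Both groups were transfected with Lipofectamine RNAiMAX and collected after 48 h. EHMT1 (GLP) is an enzyme that methylates lysine 9 of histone H3. The labels give no siRNA sequence and do not say that the replicates of a group were separate cultures, so the p-values measure the spread between these libraries, which may be technical. A second experiment of the series, with SOX8 siRNA, was not analysed here.

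When a cell enters mitosis, cyclin A and cyclin B activate CDK1, condensin compacts the chromosomes, and a kinetochore is built on the centromere of each sister chromatid. The inner kinetochore sits on nucleosomes that hold the histone variant CENPA, and the outer kinetochore grips spindle microtubules. The spindle checkpoint holds back the anaphase-promoting complex (APC/C) until every kinetochore is attached, after which separase is freed and the sisters part. Many of these genes are transcribed together late in the cell cycle, through promoters that carry CCAAT boxes and a cell cycle genes homology region (CHR), and the group is widely used as a readout of proliferation.

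The knockdown and the cell type were checked first. EHMT1 (ENSG00000181090) was at 53.2, 54.4 and 57.6 CPM (read counts scaled to the size of the library) in the EHMT1 siRNA libraries, against 131, 156 and 130.1 CPM in the scrambled libraries. The groups lay far apart, with a log2 fold change of -1.34 ± 0.07 (SE; edgeR quasi-likelihood test, adjusted p = 9.13e-09) and an exact two-sided permutation p of 0.1, the smallest that 3 libraries against 3 allow. The muscle regulator MYOD1 averaged 155 CPM with EHMT1 siRNA and 151 CPM with scrambled siRNA, and the muscle filament gene DES 298.5 CPM with EHMT1 siRNA and 311 CPM with scrambled siRNA. Of the 7 muscle lineage markers tested, 1 rose and none fell, where 5.81% of all genes tested rose and 6.54% fell. The marker that rose was PAX7, a factor of muscle stem cells. It averaged 69.9 ± 1.65 CPM with EHMT1 siRNA and 57.6 ± 3.13 CPM with scrambled siRNA (SD, n = 3 each). Its log2 fold change was 0.28 (edgeR adjusted p = 0.0058), a call lost without EHMT1 siRNA replicate 3. The receptor gene CHRNA1 averaged 716 CPM with EHMT1 siRNA and 638 CPM with scrambled siRNA and was not called (0.17, adjusted p = 0.0566), although its EHMT1 siRNA libraries all lay above the scrambled ones. MYF5 had no count in any library, which still allows a level of up to 3 counts (0.0641 to 0.0751 CPM, by library). The 9 markers of epithelium, endothelium and blood summed to 0.916 to 1.16 CPM with EHMT1 siRNA and 0.577 to 1.15 CPM with scrambled siRNA, with KRT19 at 0 counts. Gene counts per library ran from 40639655 to 42098426 with EHMT1 siRNA and from 41095515 to 47258481 with scrambled siRNA. On the first principal component of all genes, which held 35.8% of the variance, the EHMT1 siRNA libraries lay between -21.6 and -19.6 and the scrambled libraries at 16.0, 36.4 and 9.16, with scrambled replicate 2 farthest out.

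Mitotic genes were lower as a group after EHMT1 knockdown, each by a modest amount. Of the 50, 35 (70%) fell at an adjusted p under 0.05, none rose, and 15 were not called, where 12.4% of all genes tested were called: 6.54% lower and 5.81% higher. The log2 fold change was below 0 for all 50, so none was higher at an unadjusted p under 0.05 either, and DESeq2 and limma-voom also called 0 higher. The median log2 fold change was -0.29 (quartiles -0.34 and -0.20), beside 0.00 over all genes tested, and single genes ranged from -0.67 for CENPW to -0.05 for ASPM. Summed over the 50 genes, the level was 5678, 5680 and 5591 CPM in the EHMT1 siRNA libraries, against 7048, 7027 and 6467 CPM in the scrambled libraries. In 44 of the 50 genes every EHMT1 siRNA library lay below every scrambled library, where 15.5% of all genes tested did so. In bulk RNA, fewer cells in mitosis and less RNA of these genes per cell cannot be told apart.

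**Figure D1:**
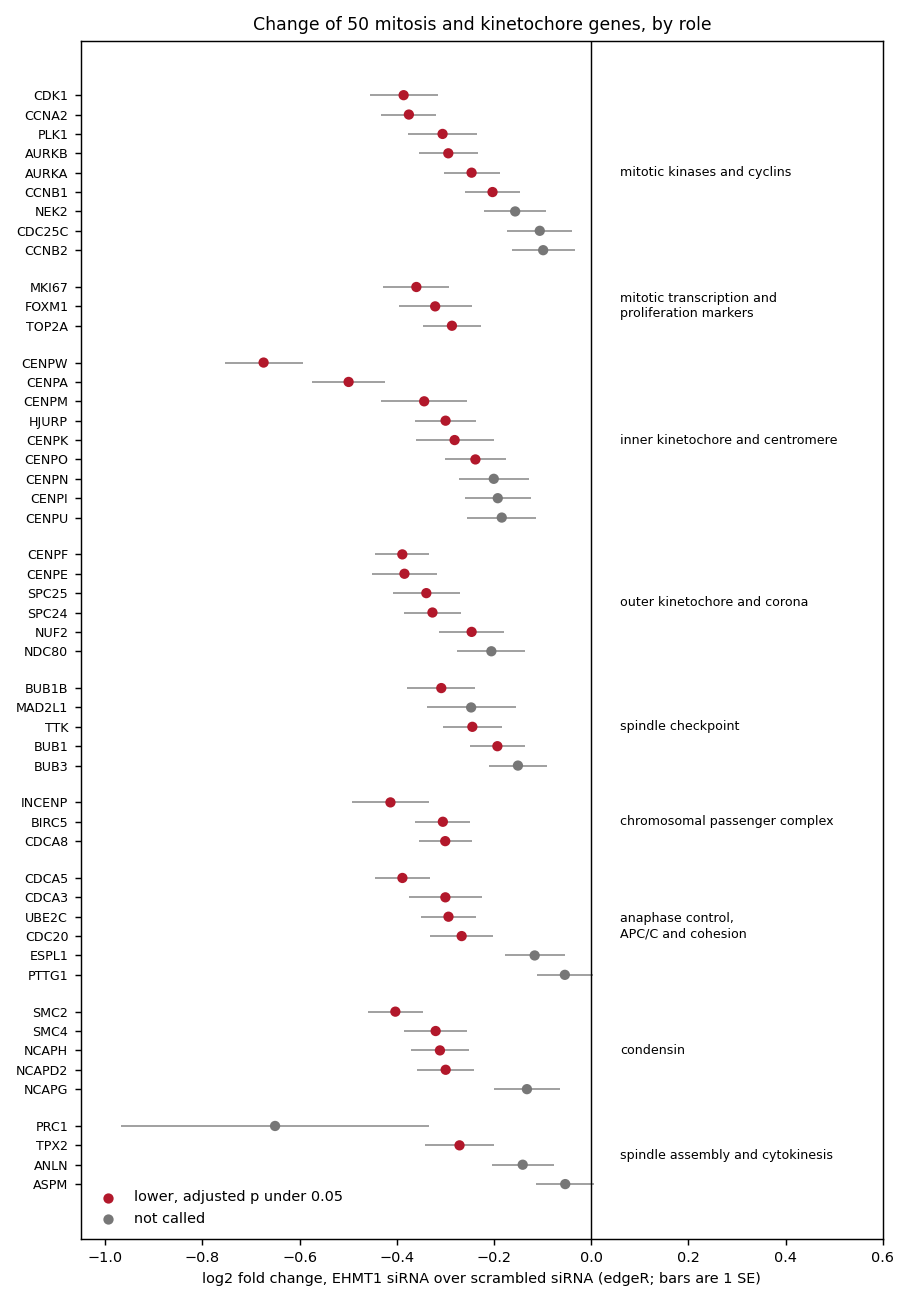
Log2 fold change (EHMT1 siRNA over scrambled siRNA) of each of the 50 genes on the horizontal axis, grouped by role, with bars of 1 SE (3 libraries a group). Every point lies left of 0, and the 35 red points passed an adjusted p under 0.05.

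**Figure D2:**
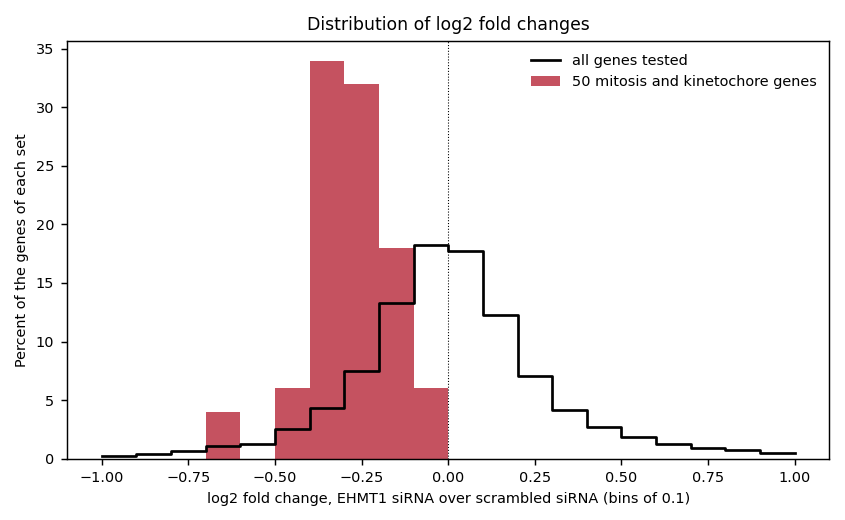
Share of genes (percent, vertical axis) in bins of log2 fold change for the 50 genes (red bars) and for all 18646 genes tested (black line). The 50 genes lie wholly below 0 with a median of -0.29, whereas all genes centre on 0.00.

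Leaving out a library changed how many genes passed the test. Of the 35, 21 stayed called whichever library was left out, and the other 14 were lost in at least 1 such fit. Without EHMT1 siRNA replicate 1, 2 or 3, 26, 21 and 25 of the 50 fell, where 3.16%, 2.54% and 2.76% of all genes did. Without scrambled replicate 1, 2 or 3, 31, 42 and 36 fell, where 6.03%, 10.0% and 6.59% of all genes did. The median log2 fold change of the 50 stayed between -0.33 and -0.25 over these 6 fits.

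The start sites of the genes were set beside the changes. RefSeq promoter windows on GRCh38.p14, from 250 bases before to 50 after the annotated start, matched 42 of the 50 genes. TPX2, CENPM, UBE2C, BUB3, FOXM1, TTK, AURKA and BIRC5 had no entry. A pair of motifs was searched on both strands: the CHR core, spelled TTTGAA or, in its palindromic form, TTTAAA, and the box CCAAT. Other spellings of the core were not searched, so a gene without a match may still hold one. A match to 1 motif may share end letters with a match to the other, though none does in the windows printed here. A CHR core stood in 32 of the 42 genes (76.2%) and in 21.5% of the 12101 tested genes that have a window. A CCAAT box stood in 31 of the 42 (73.8%) and in 42.6% of tested genes, and both motifs in 23 of the 42 (54.8%) and in 9.07%. The median GC content of the windows, taking the first of each gene, was 61.2% for the 42 genes and 65% for tested genes. The shares were not adjusted for it. A gene with more than 1 window counted if any window held the motif. Such a match is a description of letters, not of a bound site.

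The windows below, written 5′ to 3′ on the strand of the gene with the motif letters in capitals, are those of the 3 called genes with the largest falls (CENPW, CENPA and INCENP) and of CCNB2 and ASPM, which were not called. They lie at chr6:126339865-126340164 (plus strand) for CENPW, chr2:26785806-26786105 (plus) for CENPA, chr11:62123761-62124060 (plus) for INCENP, chr15:59104896-59105195 (plus) for CCNB2 and chr1:197146620-197146919 (minus) for ASPM.
CENPW: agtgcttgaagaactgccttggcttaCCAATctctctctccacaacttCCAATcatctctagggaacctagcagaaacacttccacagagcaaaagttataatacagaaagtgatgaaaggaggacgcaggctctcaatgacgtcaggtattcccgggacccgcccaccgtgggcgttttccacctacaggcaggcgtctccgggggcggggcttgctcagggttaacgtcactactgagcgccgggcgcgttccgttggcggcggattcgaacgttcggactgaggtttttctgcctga
CENPA: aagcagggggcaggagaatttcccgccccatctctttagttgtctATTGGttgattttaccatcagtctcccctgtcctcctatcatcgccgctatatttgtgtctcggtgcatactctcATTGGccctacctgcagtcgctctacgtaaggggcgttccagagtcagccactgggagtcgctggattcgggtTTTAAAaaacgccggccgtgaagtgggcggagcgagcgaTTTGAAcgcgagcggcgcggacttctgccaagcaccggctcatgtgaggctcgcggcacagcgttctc
INCENP: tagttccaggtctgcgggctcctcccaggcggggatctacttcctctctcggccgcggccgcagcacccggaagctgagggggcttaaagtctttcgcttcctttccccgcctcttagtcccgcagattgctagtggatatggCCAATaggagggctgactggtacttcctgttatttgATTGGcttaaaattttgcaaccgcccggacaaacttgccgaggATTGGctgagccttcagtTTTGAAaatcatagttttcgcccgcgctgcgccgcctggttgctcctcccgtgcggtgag
CCNB2: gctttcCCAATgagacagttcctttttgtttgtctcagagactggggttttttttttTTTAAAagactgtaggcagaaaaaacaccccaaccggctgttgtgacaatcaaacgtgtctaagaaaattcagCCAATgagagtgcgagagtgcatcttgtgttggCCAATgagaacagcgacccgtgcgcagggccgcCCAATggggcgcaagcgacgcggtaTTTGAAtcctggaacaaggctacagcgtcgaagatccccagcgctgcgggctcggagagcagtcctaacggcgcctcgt
ASPM: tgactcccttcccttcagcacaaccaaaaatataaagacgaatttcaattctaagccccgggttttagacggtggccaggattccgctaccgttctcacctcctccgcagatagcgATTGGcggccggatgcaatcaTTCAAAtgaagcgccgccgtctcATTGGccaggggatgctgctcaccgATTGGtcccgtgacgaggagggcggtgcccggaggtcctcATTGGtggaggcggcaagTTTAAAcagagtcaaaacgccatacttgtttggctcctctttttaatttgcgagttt

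Both motifs occurred among fallen genes and among those not called. CDCA5, which fell, and CENPI, which was not called, held neither in a spelling searched. CENPW, with the largest fall, held 2 CCAAT boxes, 224 and 202 bases before the start, and no CHR core in either spelling searched. A stretch of the bases after the start matched the gene's GENCODE transcripts in the sense direction for CENPA, INCENP, CCNB2 and ASPM. For CENPW no such stretch matched in either direction, so its distances rest on the RefSeq start alone. CENPA held CHR cores 57 and 18 bases before the start, and INCENP 1 at 10 bases before it. CCNB2 and ASPM held 2 CHR cores and 4 CCAAT boxes each, with ASPM's nearest core 7 bases before the start. No other gene that was not called held as many of both, so these 2 do not represent that set. PTTG1, whose change was smaller than that of CCNB2, held at most 1 CHR core and 3 CCAAT boxes in a window. Over the 42 genes, the median log2 fold change was -0.30 for the 32 with a CHR core and -0.29 for the 10 without one, and -0.30 for the 31 with a CCAAT box and -0.25 for the 11 without one. A CHR core stood in 75% of the 28 fallen genes with a window and in 78.6% of the 14 that were not called.

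Of the 9 kinases, cyclins and their partners, 6 fell, with a median log2 fold change of -0.25. CCNA2 (cyclin A2, ENSG00000145386) was at 75.9, 73.0 and 73.7 CPM with EHMT1 siRNA, against 100.4, 94.5 and 93.8 CPM with scrambled siRNA. It fell by 0.38 ± 0.06 on the log2 scale (SE; adjusted p = 0.000375). CDK1 (ENSG00000170312), the kinase that cyclins A and B activate, was at 116, 108 and 104 CPM with EHMT1 siRNA, against 159, 133 and 136 CPM with scrambled siRNA. Its means of 109 ± 5.80 and 143 ± 14.5 CPM (SD, n = 3 each) gave a log2 fold change of -0.39 ± 0.07 (adjusted p = 0.00169), and for neither gene did the groups overlap. PLK1 (-0.31, adjusted p = 0.00874), AURKB (-0.29, 0.00409), AURKA (-0.25, 0.00975) and CCNB1 (cyclin B1; -0.20, 0.0234) also fell. These kinases drive entry into mitosis, centrosome maturation and the correction of faulty attachments. The partner cyclin CCNB2 was the member of the group with the smallest change: it was at 33.3, 35 and 35.8 CPM with EHMT1 siRNA, against 37.9, 38.5 and 35.1 CPM with scrambled siRNA (-0.10 ± 0.07, adjusted p = 0.371). Its groups overlapped, since EHMT1 siRNA replicate 3 lay above scrambled replicate 3. CDC25C, the phosphatase that activates CDK1 (-0.11, adjusted p = 0.349), and the centrosomal kinase NEK2 (-0.16, 0.128) were not called, although for both every EHMT1 siRNA library lay below every scrambled one. CCNB1 and AURKA lost their calls whichever EHMT1 siRNA library was left out, and PLK1 without EHMT1 siRNA replicate 1 or 2.

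The 3 genes used as general markers of proliferation all fell. MKI67 (ENSG00000148773), whose protein Ki-67 coats mitotic chromosomes, was at 341, 369.8 and 348 CPM with EHMT1 siRNA, against 430.3, 505 and 424 CPM with scrambled siRNA (-0.36 ± 0.07, adjusted p = 0.00226). TOP2A (ENSG00000131747), the topoisomerase that untangles sister chromatids, was at 425, 424 and 414 CPM with EHMT1 siRNA, against 557, 497 and 486.5 CPM with scrambled siRNA (-0.29 ± 0.06, adjusted p = 0.00496). In both, the scrambled libraries spread more widely than the EHMT1 siRNA libraries, with SDs of 14.9 and 45.4 CPM for MKI67 and 5.83 and 38.2 CPM for TOP2A. FOXM1, the transcription factor that activates many mitotic genes, averaged 117 ± 1.66 CPM with EHMT1 siRNA and 146 ± 19.2 CPM with scrambled siRNA (-0.32, adjusted p = 0.00976), and it was not called once EHMT1 siRNA replicate 2 was left out.

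The inner kinetochore held the 2 largest called changes of the 50 genes. CENPW (ENSG00000203760), a histone-fold subunit of the network on centromeric nucleosomes, was at 17.3, 14.8 and 16.0 CPM with EHMT1 siRNA, against 26.5, 26.4 and 23.7 CPM with scrambled siRNA. Its mean with EHMT1 siRNA was 62.7% of that with scrambled siRNA (log2 fold change -0.67 ± 0.08, adjusted p = 4.37e-05). CENPA (ENSG00000115163), the centromeric histone itself, was at 21.6, 21.7 and 24.1 CPM with EHMT1 siRNA, against 33.6, 29.2 and 32.3 CPM with scrambled siRNA (-0.50 ± 0.08, adjusted p = 0.000376). For both, the highest EHMT1 siRNA library lay well below the lowest scrambled library. HJURP, the chaperone that loads CENPA (-0.30, adjusted p = 0.00426), and the network subunits CENPM (-0.34, 0.0165), CENPK (-0.28, 0.0294) and CENPO (-0.24, 0.0181) fell as well, which made 6 of 9 with a median of -0.28. CENPU, a subunit that recruits PLK1, was at 37.9, 35.5 and 35.7 CPM with EHMT1 siRNA, against 45.7, 38.6 and 39.7 CPM with scrambled siRNA, and was not called (-0.18 ± 0.07, adjusted p = 0.106). CENPN, which binds the CENPA nucleosome (-0.20, adjusted p = 0.0783), and CENPI (-0.19, 0.0741) were not called either, yet in all 9 genes the groups did not overlap. Without EHMT1 siRNA replicate 2 only 3 of the 9 fell, where 2.54% of all genes tested did. Without scrambled replicate 2 all 9 fell, where 10% of all genes tested did.

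Of the 6 outer kinetochore genes, 5 fell, with a median log2 fold change of -0.33. CENPF (ENSG00000117724), a large coiled-coil protein of the kinetochore corona, was at 214, 228 and 214 CPM with EHMT1 siRNA, against 288, 294 and 278 CPM with scrambled siRNA (-0.39 ± 0.06, adjusted p = 0.00025). CENPE, a kinetochore-bound motor that moves chromosomes to the spindle equator, was at 100.4, 103 and 98.0 CPM with EHMT1 siRNA, against 142, 134 and 117 CPM with scrambled siRNA (-0.38 ± 0.07, adjusted p = 0.00125). Neither gene's groups overlapped. The NDC80 complex is the main microtubule grip, and its subunits SPC25 (-0.34, adjusted p = 0.00399), SPC24 (-0.33, 0.00139) and NUF2 (-0.25, 0.0218) fell. NDC80 itself was not called: it was at 49.9, 46.2 and 46.4 CPM with EHMT1 siRNA, against 60.6, 52.3 and 51.3 CPM with scrambled siRNA (-0.21 ± 0.07, adjusted p = 0.0652). Its 3 EHMT1 siRNA values still lay below all 3 scrambled values. The call for NUF2 was lost without EHMT1 siRNA replicate 2 or 3 or scrambled replicate 1.

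Of the 5 spindle checkpoint genes, 3 fell, with a median log2 fold change of -0.24, and this was the one role group with 3 or more calls that could lose all of them when 1 library was left out. BUB1B, whose protein BUBR1 is part of the complex that holds back the APC/C, was at 100, 94.9 and 93.8 CPM with EHMT1 siRNA, against 119, 132 and 107 CPM with scrambled siRNA (-0.31 ± 0.07, adjusted p = 0.00793). TTK, the kinase MPS1 that starts checkpoint signalling, was at 61.7, 61.7 and 59.0 CPM with EHMT1 siRNA, against 76.4, 72.2 and 67.4 CPM with scrambled siRNA (-0.24 ± 0.06, adjusted p = 0.0144). The groups of both genes were apart. BUB1, the kinase that gathers checkpoint proteins at kinetochores, fell by 0.19 on the log2 scale (adjusted p = 0.0325). BUB3, which carries BUB1 and BUBR1 to kinetochores, was at 268, 254 and 256 CPM with EHMT1 siRNA, against 309.7, 279.5 and 274 CPM with scrambled siRNA (-0.15 ± 0.06, adjusted p = 0.114). MAD2L1, the MAD2 protein of the checkpoint complex, was not called either (-0.25 ± 0.09, adjusted p = 0.0924), and its groups overlapped because scrambled replicate 2 was at 72.2 CPM and EHMT1 siRNA replicate 1 at 78.1 CPM. Without EHMT1 siRNA replicate 2 or replicate 3, 0 of the 5 fell, where 2.54% and 2.76% of all genes tested did. Without scrambled replicate 2 all 5 fell, where 10% of all genes tested did.

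The chromosomal passenger complex steers AURKB to centromeres and the midzone, and its 3 non-kinase subunits fell in the fit with all libraries and in each of the 6 fits without 1 library. CDCA8 (Borealin) was at 98.9, 102 and 98.5 CPM with EHMT1 siRNA, against 124, 125 and 119 CPM with scrambled siRNA (-0.30 ± 0.05, adjusted p = 0.00169). BIRC5 (Survivin) was at 114, 104 and 112 CPM with EHMT1 siRNA, against 136, 138 and 134 CPM with scrambled siRNA (-0.31 ± 0.06, adjusted p = 0.00204). INCENP (ENSG00000149503), the scaffold that activates AURKB, was at 90.1, 92.3 and 90.7 CPM with EHMT1 siRNA, against 112, 142 and 109.6 CPM with scrambled siRNA (-0.41 ± 0.08, adjusted p = 0.00269). Scrambled replicate 2 stood above the rest of its group for INCENP, and without it the log2 fold change was -0.29.

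Of the 6 genes of anaphase control and cohesion, 4 fell. CDCA5 (Sororin, ENSG00000146670), which protects cohesin on replicated chromatids, was at 74.3, 71.5 and 70.7 CPM with EHMT1 siRNA, against 96.2, 96.2 and 91.1 CPM with scrambled siRNA (-0.39 ± 0.06, adjusted p = 0.000274). UBE2C, the ubiquitin-conjugating enzyme that serves the APC/C, was at 136, 132 and 136 CPM with EHMT1 siRNA, against 161, 173 and 162 CPM with scrambled siRNA (-0.29 ± 0.06, adjusted p = 0.00229). Both were well separated between the groups. CDCA3 (-0.30, adjusted p = 0.0145) and the APC/C activator CDC20 (-0.27, 0.0117) fell with less stable calls, CDCA3's lost without EHMT1 siRNA replicate 2 or 3 and CDC20's without EHMT1 siRNA replicate 1 or 2. Separase and its inhibitor were not called. PTTG1 (securin) was at 62.0, 62.9 and 60.2 CPM with EHMT1 siRNA, against 66.3, 63.9 and 62.0 CPM with scrambled siRNA (-0.05 ± 0.06, adjusted p = 0.608), and ESPL1 (separase) had a log2 fold change of -0.12 (0.254). PTTG1's groups overlapped and ESPL1's did not.

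Among the 5 condensin genes 4 fell, and no fit without 1 library had fewer. SMC2 (ENSG00000136824), a core ATPase shared by condensins I and II, was at 251, 254 and 246 CPM with EHMT1 siRNA, against 349.6, 322 and 321.5 CPM with scrambled siRNA (-0.40 ± 0.06, adjusted p = 0.000196). NCAPH, the subunit that closes the condensin I ring, was at 81.4, 80.9 and 79.3 CPM with EHMT1 siRNA, against 103.5, 103 and 93.0 CPM with scrambled siRNA (-0.31 ± 0.06, adjusted p = 0.00241). SMC4, the other ATPase (-0.32, adjusted p = 0.00356), and NCAPD2 (-0.30, 0.00285) fell by like amounts. NCAPG, the remaining condensin I subunit, was at 96.1, 94.4 and 90.5 CPM with EHMT1 siRNA, against 113.5, 93.5 and 101 CPM with scrambled siRNA, and was not called (-0.13 ± 0.07, adjusted p = 0.234). Its groups overlapped, with scrambled replicate 2 below 2 of the EHMT1 siRNA libraries.

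Spindle assembly and cytokinesis had 1 called gene of 4. TPX2, which activates AURKA on spindle microtubules, was at 332, 336.5 and 327 CPM with EHMT1 siRNA, against 414, 438 and 350.0 CPM with scrambled siRNA (-0.27 ± 0.07, adjusted p = 0.0172), a call it lost in each fit that left out an EHMT1 siRNA library or scrambled replicate 1. ANLN (anillin), which organises the cytokinetic ring, was at 252, 252 and 243.5 CPM with EHMT1 siRNA, against 297, 277 and 249.9 CPM with scrambled siRNA (-0.14 ± 0.06, adjusted p = 0.171). ASPM (ENSG00000066279), a spindle pole protein, was at 179, 203 and 183 CPM with EHMT1 siRNA, against 194, 192 and 200.2 CPM with scrambled siRNA (-0.05 ± 0.06, adjusted p = 0.631). The groups of ANLN and ASPM overlapped, and ASPM was the one gene of the 50 whose highest value was in an EHMT1 siRNA library. PRC1 (ENSG00000198901), which bundles midzone microtubules, was counted rarely, with 178 counts over the 6 libraries: it stood at 0.544, 0.554 and 0.537 CPM with EHMT1 siRNA, against 0.748, 1.20 and 0.636 CPM with scrambled siRNA (-0.65 ± 0.32, adjusted p = 0.209). In GENCODE release 29, 57.6% of its exon length is shared with another gene on the same strand. Reads in shared exons are counted for neither gene, so these counts may understate its level.

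**Figure D3:**
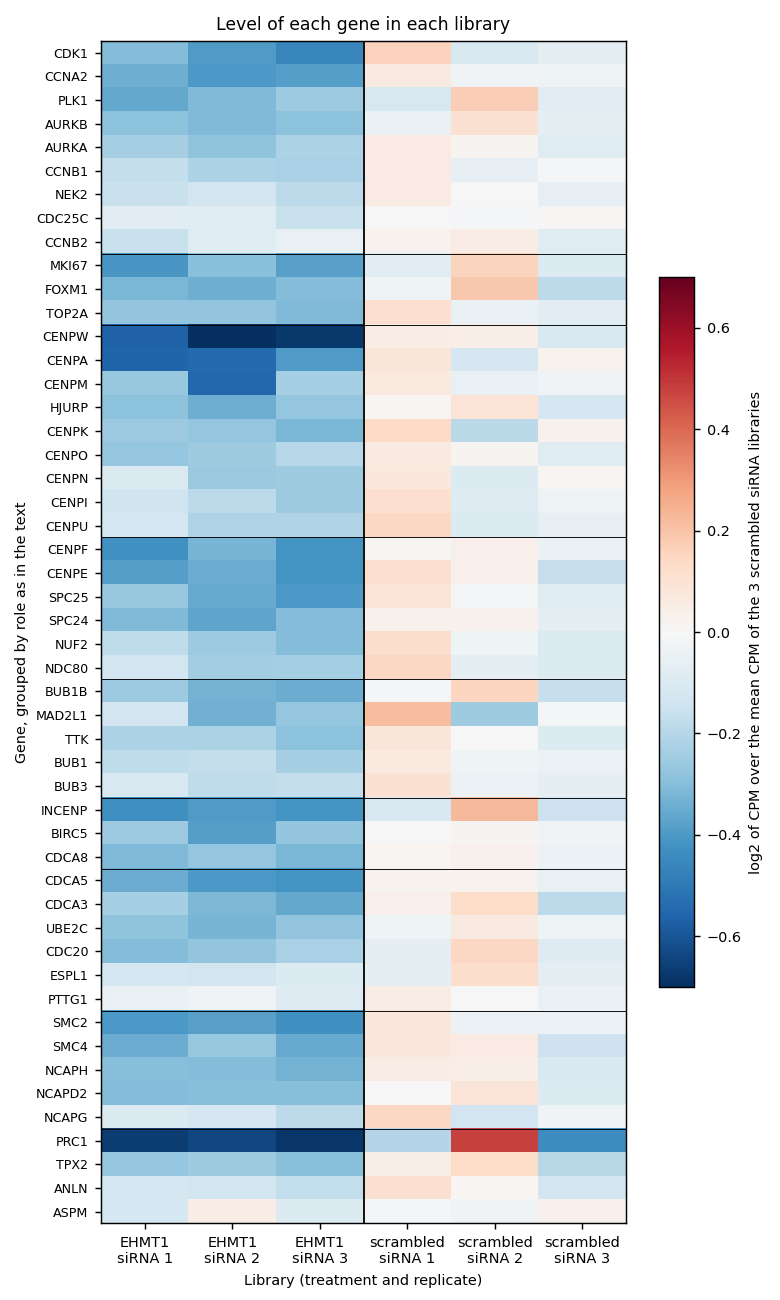
Level of each of the 50 genes (rows, by role) in each of the 6 libraries (columns), as log2 of the CPM over the mean CPM of the 3 scrambled libraries. The 3 EHMT1 siRNA columns lie close together, while scrambled replicates 1 and 2 hold the highest value of 29 and 19 genes.

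Levels per kilobase of exon spanned a wide range among the 50 genes. UBE2C was the highest, at 105 CPM per kb with EHMT1 siRNA and 128 with scrambled siRNA, followed by TPX2 at 92.0 and 111 and CDC20 at 87.4 and 105. Among genes other than PRC1, CENPK was the lowest at 5.70 CPM per kb with EHMT1 siRNA and 6.92 with scrambled siRNA. The log2 fold change had a Spearman correlation over the 50 genes of -0.03 with level, 0.03 with exon length and -0.11 with GC content, given as descriptions over genes measured in the same 6 libraries.

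The scrambled libraries differed among themselves more than the EHMT1 siRNA libraries did. The median coefficient of variation of the 50 genes was 2.63% with EHMT1 siRNA and 6.64% with scrambled siRNA, beside 5.63% and 9.78% over all genes tested. The 29 genes with their highest level in scrambled replicate 1 had a median transcript GC content of 40.8%, and the 19 with their highest level in scrambled replicate 2 had 51.4%. MKI67, FOXM1, PLK1, CDC20 and INCENP, for instance, peaked in scrambled replicate 2, and CDK1, TOP2A, SMC2 and CENPE in scrambled replicate 1. With per-library offsets for GC content and length, a setting chosen after seeing the data, 42 of the 50 genes fell and none rose, where 9.92% of all genes tested fell. Scrambled replicate 2 also had the highest mitochondrial share of counts, 5.41% beside 4.29% and 4.41% in the other scrambled libraries, against 4.63% to 4.83% with EHMT1 siRNA. Its part in the results was not tested beyond the fits without that library.

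Counting could blur some genes. In the main, unstranded counts, a read in exons shared by genes on opposite strands is ambiguous and counted for neither. In GENCODE release 29, 17 of the 50 genes have exons that overlap a gene on the opposite strand. Such genes can be undercounted: CENPO had 11394 unstranded counts over the 6 libraries and 22808 on the majority strand. Ambiguous reads made up 9.94% to 10.3% of reads in the unstranded counts and 4.40% to 4.68% on the majority strand. In the counts of the majority strand, which held 87.1% to 89.0% of strand-assigned reads, 34 of the 50 fell. Of all genes tested, 6.62% fell in those counts. CENPO, with 31.4% of its exon length under antisense exons, was the gene that lost its call there (log2 fold change -0.16, adjusted p = 0.0734). FOXM1, SMC4 and PLK1, which also have antisense partners, fell there with log2 fold changes of -0.27, -0.28 and -0.28. Copies were a further source of doubt: 17 genes, among them UBE2C, NEK2, CDC20, BUB3, CCNB2, AURKA and NCAPG, have at least 1 identifier in the files named as a copy of them, so that reads may be shared with it and their values are uncertain.

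Further genes of the same machinery, outside the 50, were called in part. Of 101 such genes in 8 lists, 30 (29.7%) fell and 2 rose, with a median log2 fold change of -0.14, where 6.54% of all genes tested were called lower and 5.81% higher. The shares that fell were 15.4% of the inner kinetochore list, 16.7% of the cohesin list and 17.6% of the APC/C list, nearer to that background than those of the other lists. Among 13 further inner kinetochore genes 2 fell, among them the network subunit CENPP (-0.38, adjusted p = 0.0148), while ITGB3BP was not called (-0.21, 0.0569). Among 14 further outer kinetochore genes 5 fell, led by ZWINT (-0.35, 0.00224), SKA2 (-0.27, 0.00736) and KNTC1 (-0.21, 0.0236). The constitutive centromere protein CENPC (-0.11, 0.406) and MIS12, which joins the inner to the outer kinetochore (-0.03, 0.818), were not called; both were singled out after their values were seen. Falls in these 2 lists ran from 0 to 5 and from 1 to 8 when 1 library was left out, where 2.54% to 10% of all genes tested fell.

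Most genes of the APC/C were not called. Of 17 APC/C genes 3 fell, 2 rose and 12 did not pass the test, with a median of -0.11. The fallen were UBE2S, the chain-extending enzyme (-0.41, adjusted p = 0.000951), FBXO5, the inhibitor EMI1 (-0.34, 0.0025), and the low-level subunit ANAPC15 (-0.80, 0.00902), which averaged 1.82 CPM with EHMT1 siRNA and 3.16 CPM with scrambled siRNA. The subunits ANAPC11 (0.28, 0.0449) and ANAPC16 (0.20, 0.0403) rose, in calls that were lost in 5 and 4 of the 6 fits without 1 library. In cohesin, 2 of 12 genes fell, SGO2 (-0.29, 0.00862), a guardian of centromeric cohesion, and the ring subunit SMC3 (-0.25, 0.0148), while its partner SMC1A was not called (-0.20, 0.103). Of the 3 condensin II subunits, NCAPG2 (-0.30, 0.00387) and NCAPH2 (-0.25, 0.0111) fell and NCAPD3 was not called (-0.11, 0.204).

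Among 18 further spindle, centrosome and cytokinesis genes 8 fell, led by the microtubule-associated proteins HMMR (-0.40, adjusted p = 0.000484), DLGAP5 (-0.33, 0.00228) and CKAP5 (-0.27, 0.0051). Among 12 further genes of mitotic entry and exit 5 fell, among them the replication licensing inhibitor GMNN (geminin; -0.32, 0.00254), the CDK1-inhibiting kinase PKMYT1 (-0.33, 0.0102) and GTSE1 (-0.23, 0.0122). The DREAM and MuvB complexes bind the promoters of cell cycle genes, and 3 of their 12 genes fell. MYBL2 (B-Myb), the activating partner of MuvB, had the largest of these falls: it averaged 169 CPM with EHMT1 siRNA and 264 CPM with scrambled siRNA (-0.65, 4.19e-05). RBL1 (p107), a repressor subunit of DREAM (-0.39, 0.00232), and TFDP1 (-0.25, 0.0114) were the others. Leaving out 1 library gave 2 to 8 falls among APC/C genes, 0 to 3 in cohesin, 1 to 2 in condensin II, 2 to 11 in the spindle list, 1 to 6 in the entry and exit list and 2 to 5 in DREAM and MuvB, in each list fewest without an EHMT1 siRNA library. In those fits 2.54% to 10% of all genes tested fell. MYBL2, RBL1, HMMR, DLGAP5, GMNN, ZWINT, UBE2S, FBXO5 and NCAPG2 kept their calls in all 6 fits without 1 library.

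Kinesins and DNA replication genes gave similar medians. Of 12 mitotic kinesins 11 fell and none rose, with a median of -0.26, led by KIFC1 (-0.37, adjusted p = 0.00151). Of 33 DNA replication genes 27 fell and none rose, with a median of -0.29, led by LIG1 (-0.66, 1.22e-05), the ligase of lagging-strand synthesis, and the helicase subunits MCM2 (-0.49, 0.000239) and MCM3 (-0.37, 0.00046). Of all genes tested, 6.54% fell in the same fit. Leaving out 1 library gave 4 to 12 fallen kinesins and 15 to 30 fallen replication genes, where 2.54% to 10% of all genes tested fell. Differences between these lists and the 50 genes were not tested.

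**Figure D4:**
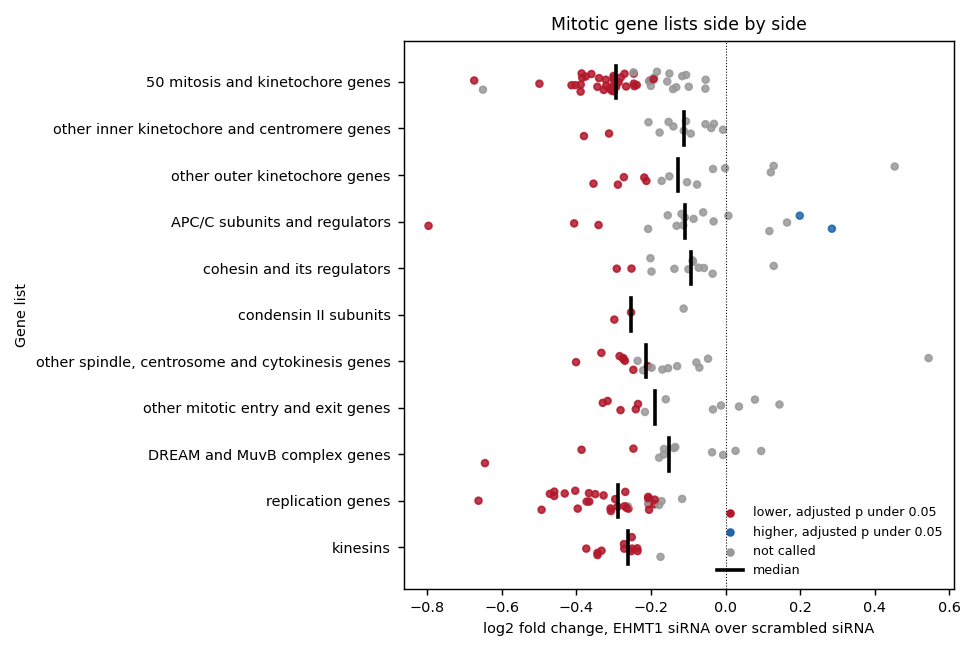
Log2 fold change (EHMT1 siRNA over scrambled siRNA, horizontal axis) of each gene in the 50-gene group and in the other mitotic, kinesin and replication lists, with a black line at each median. The 50 genes (-0.29), replication genes (-0.29) and kinesins (-0.26) lie lowest as large lists, while the 101 other mitotic genes centre on -0.14.

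**Figure D5:**
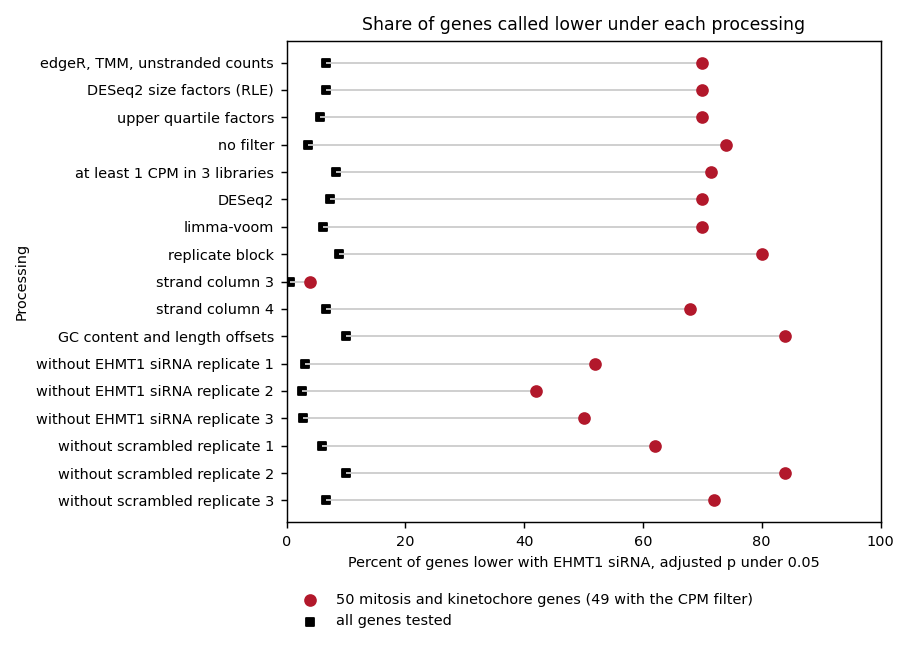
Percent of genes called lower with EHMT1 siRNA (horizontal axis) under each way of processing (rows), for the 50 genes (red circles) and all genes tested (black squares). In the main fit the shares are 70% and 6.54%, and under each setting drawn the share of the 50 is the larger.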

How the data were processed

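The 6 RD libraries, 3 with EHMT1 siRNA and 3 with scrambled siRNA, were compared with each other, with groups taken from the sample titles. Poly-A RNA was captured on poly-T beads and NEBNext Ultra libraries were prepared, per the labels' protocols. The submitters' processing notes name STAR 2.5, HTSeq 0.6.1, CASAVA, bcl2fastq, DESeq2 and the build hg19. The deposited values were the authors' raw read counts for each gene, not normalized, in the layout of STAR's gene count table with an unstranded and 2 strand columns. Identifiers were matched to symbols (61399 of 61552) and to GENCODE release 29 (58352), a later set than hg19, so no coordinates of the counts are given. Exon lengths and overlaps come from GENCODE, and promoter windows from RefSeq.

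Reads assigned to no gene, the ambiguous ones among them (20.0% to 21.2% in all), were left out. edgeR 4.0.16 (R 4.3.3) was run on the unstranded counts: filterByExpr with a minimum count of 10, TMM normalization, a robust quasi-likelihood model with group as its one term, and Benjamini-Hochberg adjustment over all 18646 genes tested, at a threshold of 0.05. The fit takes 1 spread for both groups. SEs are the log2 fold change over the square root of F, and CPM values use TMM factors. The 3-count floor covers counting error only. Replicates differed beyond sampling noise (chi-square over its degrees of freedom 2.80 or more), so none was counted as a repeat deposit. The fit was tested on simulated data.

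Alternatives were other normalizations, filters, strand columns and a stricter threshold, DESeq2 1.42.0, limma-voom (limma 3.58.1), replicate number as a block, offsets for GC content and length (added after seeing the data) and leaving out each library. In each role group, the 2 genes with the smallest adjusted p and the 1 with the smallest change are given by library, and up to 3 genes of each other list by smallest adjusted p. A gene that this rule names is not reported here. INCENP, MAD2L1 and PRC1 were singled out after their values were seen. The 50 genes and all lists were chosen with earlier results of these data known, so no list was tested.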

Additional observations from a re-analysis of the deposited data

How the results depend on the processing

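Over the settings that kept all libraries, 35 of the 50 genes fell with DESeq2's size factors, upper quartile factors, DESeq2 and limma-voom. Of all genes tested, 6.63%, 5.56%, 7.28% and 6.13% fell there. A filter of 1 CPM in 3 libraries, which removed PRC1, also gave 35 (8.25% of all genes). Without a filter 37 fell (3.57% of all genes), with the majority strand 34 (6.62%) and with GC and length offsets 42 (9.92%). At an adjusted p under 0.01, 25 fell, where 1017 of all genes tested were called in either direction. None rose under any setting. In the minority strand column, which holds few of the reads, 2 fell, where 0.546% of all genes tested did. There, 177 genes of all genes tested were called. In that column 6 of the 50 genes, none of them called, had a log2 fold change above 0: NEK2 0.040, CENPM 0.0079, CENPN 0.061, CENPU 0.049, SPC24 0.035 and PTTG1 0.066. The number of genes called among all tested, 2304, was 1017 at an adjusted p under 0.01 and 936 to 3548 when 1 library was left out, lowest without EHMT1 siRNA replicate 2 and highest without scrambled replicate 2. In the same fits 21 to 42 of the 50 genes fell. The median log2 fold change of the 50 stayed between -0.33 and -0.25 under every setting run. PRC1 had as few as 22 counts in a library, which limits the precision of its value. With the replicate number as a block, 40 of the 50 genes fell, where 8.75% of all genes tested did, and 3106 genes were called. Same-numbered libraries shared little (correlations of their deviations 0.02 to 0.06, under the 0.1 set for pairing; 5 of 6 libraries were closest to their own number), so the numbers were not taken to pair the samples.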
